A study of Drosophila melanogaster with 18 samples.

Results

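The reporters described here are barcoded GFP genes that had integrated on the long arm of the X chromosome of Drosophila Kc167 cells. They were chosen by position alone, as the integrations on X below 20.5 Mb, without regard to expression. This gave 134 of the 749 reporters in the deposited table, or 17.9%. A further 13 reporters on X lay closer to the centromere and were not members. The last reporter inside the limit was at 20444792 and the first outside it at 20558939. Positions are those of the table and refer to genome build dm3, and no gene annotation of that build was used here.

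Kc167 is a line derived from Drosophila embryos. All cells came from 1 pool in which each reporter was marked by its own barcode of 21 nt, carried 5 binding sites for the yeast protein GAL4, and was driven by a metallothionein promoter that was induced in every condition with 0.5 mM copper sulfate. The pool was transiently transfected with 1 of 4 plasmids, and the cells that made mCherry from the plasmid were sorted on day 2. The control, named GAL4, expressed the V5-tagged GAL4 DNA-binding domain alone. GAL4-ACF1 expressed this domain fused to ACF1, ACF1 expressed V5-tagged ACF1 that could not be tethered through GAL4 sites, and GAL4-HP1 expressed the domain fused to HP1a. The cells retained their own ACF1 and HP1a in all conditions. Each condition had 2 replicates, each with a library of barcodes from reporter mRNA (cDNA) and a library from genomic DNA (gDNA).

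ACF1 is the large subunit of the nucleosome remodelers ACF and CHRAC, in which it binds the ATPase ISWI and directs the regular spacing of nucleosomes. HP1a binds methylated histone H3 in heterochromatin and is a well known repressor when it is brought to a reporter. The X arm of the fly is mostly euchromatic and is known for dosage compensation, in which the MSL complex raises transcription of the single X of males. Kc cells are of female origin and do not assemble this complex on their X chromosomes. In assays of this kind (TRIP, for reporters integrated in parallel) the promoter is the same at every site, so that the sites differ in their surroundings and the reporters in their barcode.

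The barcodes that identify the reporters to which the results below refer are given here, since each stands for 1 integration site on X and nothing else in the transcript tells the sites apart. Each is written 5′ to 3′ after the position and orientation of the integration. The first 8 fell with GAL4-ACF1 and the ninth rose, each by the test of single reporters. The next 3 are the reporters with the highest control level among those that lost every cDNA count with GAL4-ACF1, and the last 2 mark the closest pair of sites on the arm.
712132 plus: atagagcagttcgagtttcta
874665 plus: gtcccaggtaggggatccgta
5247819 minus: cagtgctgccgtgaaactttg
6564746 minus: atgtgtttgtcctgggctaaa
8214521 minus: aagctaagatgcagggttgcc
12333115 plus: acaagttatttccctcgggtg
13420231 minus: gggttaagaagtcctgatgat
19427053 minus: acgagtcataagtcggcaagt
3325631 minus: gggggggcacgtcaggaagtg
4869026 minus: catactagggttgtctccatt
10603578 minus: atggctgttgtctagtgattt
17223013 plus: tggatcgcattacttgtgata
19318769 minus: cgtgaggggtagcctggacac
19319180 minus: gatgtgatcagaggactgccg
Any 2 barcodes of the 134 differed at 8 or more bases, and their median GC content was 47.6%, as in the whole table. The sequence CATG, at which NlaIII cuts and which was used for mapping the integrations, was in 0 of the 134 barcodes and in 2 of all 749.

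The 134 sites covered the arm from 559731 to 20444792, with 57 reporters in the plus and 77 in the minus orientation. Adjacent sites were 411 to 1481462 bp apart, with a median of 81475 bp. There were 23 reporters from 0 to 5 Mb, 31 from 5 to 10 Mb, 34 from 10 to 15 Mb and 46 from 15 to 20.5 Mb, counted from the telomere. The median log2 expression in the GAL4 control was 4.89 for the plus and 5.00 for the minus orientation.

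The cDNA libraries held 2616438 to 4181903 counts over all reporters and the gDNA libraries 1535023 to 2860908. In gDNA the X reporters took 16.4% to 17.4% of the counts, near their share of the reporters, and no X reporter had fewer than 88 counts. Their share of cDNA was lower, at 11.0% and 10.6% in GAL4 (replicates 1 and 2), 9.22% and 8.32% in GAL4-ACF1, 11.0% and 10.1% in ACF1, and 9.41% and 8.55% in GAL4-HP1. A single reporter, at 3325631, supplied 23.2% to 37.7% of the X counts of a cDNA library. Across the X reporters above 0 in both replicates, log2 expression correlated with Pearson's r of 0.82 in GAL4 (n = 128), 0.80 in GAL4-ACF1 (n = 91), 0.76 in ACF1 (n = 121) and 0.67 in GAL4-HP1 (n = 118). These points share the libraries and their depth.

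Expression below is the deposited value, the ratio of cDNA to gDNA counts of a reporter multiplied by 1 factor per library that holds the spike-in scaling of the authors. Reporters with a mean of 0 in any condition were left out of medians, which kept 121 of the 134 members and 460 of 528 reporters on the autosomal arms. This filter removes reporters listed at 0 after a treatment. Of the 13 members left out, 10 were at 0 in both GAL4-ACF1 libraries, while 3 were at 0 with ACF1 and 2 with GAL4-HP1, and some belonged to more than 1 of these. None of the 134 was at 0 in both GAL4 libraries.

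In the control, the 121 X reporters kept ranged from 0.0913 to 2656 in expression, with a median of 31.6. On the log2 scale the median was 4.98, with 5.00 in replicate 1 and 4.60 in replicate 2. Reporters on the autosomal arms had a median of 39.7, or 5.31 on the log2 scale, with 5.25 and 5.24 in the replicates. The X median was thus lower by 0.33 log2 units over the mean of the replicates, and by 0.24 and 0.64 in replicates 1 and 2. With 2 libraries per condition no exact permutation test between conditions can give a two-sided p below 0.33, and medians over reporters are given here as descriptions. The 4 autosomal arms spanned the X value, from 4.91 on 2L to 5.60 on 2R.

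The 5 reporters with the highest control levels show how both libraries enter the ratio. The highest was the reporter at 3325631, with an expression of 2532 and 2780. It was followed by 17055391 (1301 and 582), 17014850 (546 and 988), 11745038 (236 and 1288) and 9472346 (86.7 and 952). For the last of these the GAL4 cDNA counts were alike, at 2765 and 2746, whereas its gDNA counts were 2197 and 134. The order of the 4 below the first is therefore not resolved by the replicates. At the other end of the arm map, the reporter nearest to the centromere, at 20444792, had 2 and 0 cDNA counts in GAL4 and was the lowest of all members kept. It had 0 and 25 counts in the GAL4-ACF1 libraries, 0 and 49 when ACF1 was untethered and 0 and 42 in the GAL4-HP1 libraries, and in each condition its replicates overlapped those of GAL4. The most distal reporter, at 559731, had an expression of 96.1 and 57.6 in GAL4, 9.17 and 6.61 in GAL4-ACF1, 30.8 and 38.2 in ACF1, and 158 and 13.0 in GAL4-HP1. It did not overlap GAL4 in the GAL4-ACF1 and ACF1 libraries, but its adjusted p in the edgeR test was 0.17 and 0.80.

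Next, the change with each transfected protein was measured over the arm. With GAL4-ACF1 the median X reporter was 3.41-fold lower than in GAL4 (median log2 fold change −1.77, quartiles −3.01 and −0.61), and 104 of 121 reporters were lower. The replicates alone gave −1.40 over 99 reporters and −1.49 over 109. These medians leave out the reporters at 0 in that replicate, so they cover fewer reporters than the value over the mean, which lies below both. When all 134 members were used and those at 0 with GAL4-ACF1 were ranked lowest, the median was −1.92.

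With tethered HP1 the X median was also below the control. The median log2 fold change of GAL4-HP1 was −1.47 (2.77-fold lower), with −1.28 and −1.93 in the replicates, and 104 of 121 reporters were lower. Untethered ACF1 gave −0.57 (1.48-fold lower), with −0.33 and −0.60, and 82 of 121 reporters were lower. Set directly against ACF1, from which the GAL4 control cancels, GAL4-ACF1 was lower by a median of 1.13 log2 units, with −1.27 and −0.84 in the replicates. Against GAL4-HP1 the median was −0.35, but the replicates had opposite signs, at −0.38 and 0.23.

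The size of the change with GAL4-HP1 depended on the scaling. After scaling to library totals the GAL4-HP1 median on X was −0.63, while that of GAL4-ACF1 was −1.58 and that of ACF1 −0.84. In bulk cDNA, lower expression of a reporter in every cell and loss of expression in a part of the cells cannot be told apart.

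A count that needs no filter gave a related view. For 85 of the 134 X reporters, or 63.4%, both GAL4-ACF1 libraries lay below both GAL4 libraries, and for 2 both lay above. Among all 749 reporters 60.3% lay below and 3.74% above, so the share on X was near that of the table. For GAL4-HP1 83 X reporters (61.9%) lay below and 3 above, against 61.9% and 1.2% of all reporters. For ACF1 48 (35.8%) lay below and 14 above, against 33.9% and 9.48%. After scaling to library totals 82 X reporters lay below GAL4 in both GAL4-ACF1 libraries, and this number was 58 with ACF1 and 56 with GAL4-HP1. These are 61.2%, 43.3% and 41.8% of the X reporters, against 55.1%, 42.2% and 40.3% of all reporters under the same scaling.

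The X arm was then set against the autosomal arms, which were taken as 2L up to 21 Mb, 3L up to 22.5 Mb, and 2R and 3R from 2 Mb onward. The question was whether an arm known for chromosome-wide regulation responded in another way. For GAL4-ACF1 the X median was lower than the autosomal median of −1.31 by 0.46 log2 units. This difference was −0.05 in replicate 1 and −0.34 in replicate 2. Its size was hence not resolved by the 2 replicates, although its sign was the same. The medians of the 4 autosomal arms ran from −1.66 on 2L to −1.02 on 2R, a wider span than this difference. Over the mean of the replicates X lay just below 2L. In replicate 1 X (−1.40) was above 2L (−1.63) and 3R (−1.56). In replicate 2 X (−1.49) was below every autosomal arm, with 3L (−1.28) the nearest.

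For ACF1 the difference between X and the autosomal arms was −0.19, with −0.12 and −0.08 in the replicates. For GAL4-HP1 it was −0.03, with −0.14 and −0.12. Here too the autosomal arms had a wider range, with ACF1 medians from −0.75 (2L) to −0.21 (3L) and GAL4-HP1 medians from −1.72 (2L) to −1.33 (2R). In both comparisons the X median lay within these limits.

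The number of X reporters without a cDNA count was highest with GAL4-ACF1. In GAL4 2 and 4 of 134 were at 0 in replicates 1 and 2. In GAL4-ACF1 33 and 20 had none. These are 24.6% and 14.9% of the members, with 95% Wilson intervals of 18.1 to 32.6 and 9.87 to 21.9. In ACF1 5 and 11 were at 0, and in GAL4-HP1 10 and 8, so that both GAL4-ACF1 libraries exceeded all others. The autosomal arms had 22.3% and 15.2% at 0 with GAL4-ACF1, inside the intervals of X. In replicate 1 of ACF1 they had 9.47% at 0 against 3.73% on X (interval 1.60 to 8.44), which was not so in replicate 2, with 8.90% against 8.21%. The cDNA total was lowest in replicate 1 of GAL4-ACF1, whose part in its higher number was not tested. The intervals treat the reporters of 1 library as independent and do not cover the spread between libraries, so they are no test of X against the autosomal arms. Floors cover counting error only, since reads were counted without molecular identifiers.

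In both GAL4-ACF1 libraries 14 X reporters had at most 3 counts, and a fold change against them is a lower bound. Each bound is the mean GAL4 level over the mean of the levels that 3 counts would give in each treated library. It does not cover the spread of the GAL4 libraries or the choice of scaling. The reporter at 17223013 went from 59 and 89 cDNA counts in GAL4 to none in either GAL4-ACF1 library, which made it at least 61.2-fold lower. It was also at 0 in 1 library each of ACF1 (57 and 0 counts) and GAL4-HP1 (0 and 11 counts). The reporter at 4869026 had 167 and 145 counts in GAL4 and none with GAL4-ACF1, or at least 79.8-fold lower. This bound was 57.7 without GAL4 replicate 1, 102 without GAL4 replicate 2, and 69.6 with scaling to library totals. At the same site 0 and 30 counts were left by ACF1 and 0 and 292 by GAL4-HP1. The reporter at 10603578 had 156 and 59 counts in GAL4, none with GAL4-ACF1, 1 and 22 in the ACF1 libraries, and 41 and 65 in those of GAL4-HP1. It was at least 42.7-fold lower with GAL4-ACF1, and GAL4-HP1 left it with counts in both replicates.

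Along the arm, the change with GAL4-ACF1 was larger toward the telomere. The median log2 fold change was −2.27 from 0 to 5 Mb, −2.39 from 5 to 10 Mb, −1.33 from 10 to 15 Mb and −1.22 from 15 to 20.5 Mb. The numbers of reporters in these windows were 20, 30, 29 and 42. In replicate 1 the medians were −1.91, −2.06, −1.40 and −1.08, and in replicate 2 they were −2.88, −2.26, −0.99 and −1.09. In each replicate both distal windows were below both proximal windows.

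The windows were merged into a distal stretch of 10 Mb with 50 reporters and a proximal stretch with 71 after their values had been seen. The distal median was −2.39 and the proximal median −1.30. The difference of −1.09 log2 units was −0.75 in replicate 1 and −1.47 in replicate 2, and it lay between these values for all 4 pairings of a GAL4-ACF1 with a GAL4 library. Over all 134 members, with those at 0 ranked lowest, it was −1.08. Both GAL4-ACF1 libraries lay below both GAL4 libraries for 41 of 54 distal reporters (75.9%) and for 44 of 80 proximal ones (55%), against 60.3% of all reporters.

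Untethered ACF1 had a difference between the stretches in the same direction. The window medians were −0.84, −1.37, −0.24 and −0.36. They were −0.72, −1.01, −0.023 and −0.18 in replicate 1 and −0.70, −1.15, −0.30 and −0.041 in replicate 2, so that the proximal medians depended on the library. The distal minus proximal difference was −0.83, with −0.86 to −0.64 over the 4 library pairings. With ACF1, both libraries lay below GAL4 for 26 of 54 distal (48.1%) and 22 of 80 proximal reporters (27.5%), against 33.9% of all. For GAL4-HP1 the window medians were −1.20, −1.62, −1.45 and −1.32. In replicate 1 they were −1.11, −1.41, −1.16 and −1.39, and in replicate 2 they were −2.72, −1.92, −2.12 and −1.40, so the median at the telomere was the smallest change in the one and the largest in the other. With scaling to library totals this median was −0.56, and with a pseudocount and no filter on top of that scaling −0.27. The distal minus proximal difference was −0.11 and ranged from −0.57 to −0.10 over the pairings. With GAL4-HP1, 61.1% of distal and 62.5% of proximal reporters lay below GAL4 in both libraries, against 61.9% of all.

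All of these values share the same GAL4 libraries, so the ratios between treated conditions were taken as well. GAL4-ACF1 over GAL4-HP1 differed between the distal and the proximal stretch by −0.46, with −0.85 to −0.37 over the 4 pairings of libraries. For ACF1 over GAL4-HP1 the difference was −0.29, but the pairings ran from −0.60 to 0.19. For GAL4-ACF1 over ACF1 it was −0.25, with −0.29 to 0.04. The distal excess of the change was thus of 1 sign in every pairing for GAL4-ACF1 over GAL4-HP1, and was not resolved between the tethered and the untethered ACF1. Computed on cDNA without division by gDNA, the distal minus proximal difference was −0.73 with GAL4-ACF1, −0.33 with untethered ACF1 and 0.0011 with tethered HP1.

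The windows also differed in the control level, which was 5.05, 5.24, 5.76 and 3.76 on the log2 scale from the telomere to 20.5 Mb. The last window was the lowest in both replicates, at 3.99 and 4.03. To set reporters of like level side by side, each stretch was divided at the X median of 31.6 in GAL4. Below it, the median change with GAL4-ACF1 was −2.25 for 22 distal and −1.71 for 39 proximal reporters. Above it, the values were −2.45 for 28 distal and −0.91 for 32 proximal reporters. In replicate 1 the lower group hardly differed between the stretches, with −1.52 and −1.51, while the upper group did, with −2.23 and −0.83. In replicate 2 the distal values were the lower ones in both groups.

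Windows of 5 Mb on the autosomal arms show how much such medians vary elsewhere. Over the 14 autosomal windows with at least 20 reporters, the GAL4-ACF1 median ran from −2.25 to −0.51. Both distal windows of X were just below this range, and both proximal ones were inside it. For ACF1 the autosomal windows ran from −0.99 to −0.13, and the window from 5 to 10 Mb on X was below. For GAL4-HP1 they ran from −2.36 to −0.76, and all 4 windows of X were inside. The control level of the last window on X was below the autosomal range of 4.13 to 6.50. A comparison of 4 windows with 14 has no test here.

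The control level was also set against the change on X. To avoid shared noise, the level was taken from 1 GAL4 replicate and the change from the other. Pearson's r across reporters was 0.23 (n = 109) and 0.36 (n = 98) for GAL4-ACF1. With ACF1 it was 0.10 and 0.27, whereas GAL4-HP1 gave −0.02 and 0.20. These values are across reporters of the same libraries. In 4 groups of 30 or 31 reporters ordered by the control level, the median change with GAL4-ACF1 was −2.08, −1.75, −2.16 and −0.77 from the lowest to the highest, and the top group, from 82.0 in GAL4 upward, had the smallest change. These groups, like the division at 31.6 above, are cut on the mean GAL4 level that is also the denominator of the change, so they share its noise.

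Neighboring reporters were closer to each other in control level than distant ones were. In their change they differed about as much as distant ones, or more. A level and a change hold unlike noise, so their values are not set against each other here. The 39 pairs within 50 kb of each other differed by a median of 1.11 log2 units in GAL4, against 2.09 for pairs more than 1 Mb apart. Their change with GAL4-ACF1 differed by 2.07, against 1.81 for the distant pairs. With ACF1 these values were 1.38 and 1.38, and with GAL4-HP1 1.26 and 1.31. A reporter belongs to several pairs, so the pairs are not independent.

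The closest sites give examples. The reporters at 19318769 and 19319180, 411 bp apart and both in minus orientation, had an expression of 4.03 and 2.84 against 39.8 and 19.0 in GAL4. Their levels did not overlap. With GAL4-ACF1 the first had 0 and 0 counts and the second 0 and 1, or at least 22.2-fold and 166-fold lower. The second kept 2 and 41 counts in the ACF1 libraries and 54 and 0 in those of GAL4-HP1, and its adjusted p in the edgeR test with GAL4-ACF1 was 0.055. In the next pair, 2647 bp apart, the reporter at 16024288 had 498 and 357 counts in GAL4 and 67 and 223 with GAL4-ACF1. Its neighbor at 16026935 had 125 and 116 counts in GAL4 and 0 and 0 with GAL4-ACF1, at least 58.2-fold lower. The third pair, at 15111943 and 15117014, was 5071 bp apart, with an expression of 2.96 and 12.6 against 8.37 and 6.56 in GAL4. With GAL4-ACF1 it had 0 and 0.18 against 0.60 and 1.60, and neither passed the test, with adjusted p of 0.070 and 0.055 in edgeR.

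The counts of each reporter were then tested on their own with edgeR (quasi-likelihood F-test), where a change in cDNA is measured beyond that in gDNA and relative to the rest of the library. With GAL4-ACF1 9 of the 121 X reporters passed an adjusted p of 0.05, or 7.44%, against 6.54% of all 642 reporters tested. Of the 9, 8 fell and 1 rose, and lowered calls made up 6.39% of all reporters tested. Without adjustment 37 X reporters had a p under 0.05, of which 36 were lower, and 169 of all 642 reporters did. Without GAL4 replicate 1 or without GAL4 replicate 2, 0 X reporters passed, and 1 and 2 of all reporters. In these fits the lone control library is assumed to vary like the other groups. The median fitted change on X was −1.39 and −1.56, against −1.60 in the full fit. The fitted changes kept their direction for all 9, as at 8214521, with −6.31 in the full fit and −6.02 and −6.46 in these, while at 712132 the change of −3.39 became −4.21 and −2.14.

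The direction of the calls depended on the scaling. With TMM factors, which moved the median fitted change of all reporters from −1.23 to −0.29, 1 X reporter was lower and 1 higher, against 13 and 12 of all 642. With library sizes from the authors' scaling 7 were lower and 0 higher, against 32 and 0 of all. With the median-of-ratios factors of DESeq2 8 were lower and 5 higher, against 30 and 38 of all.

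At 19427053 the replicates were close in each condition. Expression was 61.9 and 75.1 in GAL4, 8.08 and 8.98 in GAL4-ACF1, 42.0 and 45.0 in ACF1, and 17.5 and 27.6 in GAL4-HP1. The 4 conditions did not overlap, and GAL4-ACF1 was the lowest. The edgeR log2 fold change of GAL4-ACF1 was −2.81 ± 0.54 (SE), with an adjusted p of 0.011.

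The reporter at 5247819 had the smallest fitted fall of the 8. Its expression was 52.1 and 45.2 in GAL4, 9.25 and 9.43 in GAL4-ACF1, 29.7 and 11.2 in ACF1, and 25.0 and 7.69 in GAL4-HP1. GAL4-ACF1 was well below GAL4, but overlapped with GAL4-HP1. Its edgeR log2 fold change was −2.19 ± 0.48, with an adjusted p of 0.019.

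At 6564746 expression was 260 and 167 in GAL4, 22.6 and 27.3 in GAL4-ACF1, 113 and 37.4 in ACF1, and 66.4 and 22.7 in GAL4-HP1. Every treated library was below both of GAL4, where its gDNA counts were low, at 494 and 420 against 1391 to 2305 in the treated libraries. The cDNA reads of this reporter numbered 1865 and 1509 in GAL4, 509 and 821 in GAL4-ACF1, 1914 and 1222 in ACF1, and 1819 and 1417 in GAL4-HP1, so that in cDNA only GAL4-ACF1 lay apart. In edgeR its log2 fold change with GAL4-ACF1 was −2.86 ± 0.70 with an adjusted p of 0.030, and on cDNA libraries alone it was −0.996 with an adjusted p of 0.19.

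The remaining reporters that fell were at lower levels or less even in GAL4. The reporter at 712132 had an expression of 15.8 and 66.1 in GAL4 and 2.18 and 3.96 with GAL4-ACF1. It was almost as low with GAL4-HP1, at 5.24 and 3.68, while ACF1 gave 13.9 and 25.9. The reporter at 13420231 had 9.09 and 29.0 in GAL4 and 0.54 and 1.56 with GAL4-ACF1. In both cases the control libraries differed from each other by a larger factor than the ACF1 libraries, and GAL4-ACF1 lay below both. Their edgeR log2 fold changes were −3.39 and −3.82, with adjusted p of 0.034 and 0.023. With cDNA libraries alone the edgeR adjusted p was 0.029 and 0.072.

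Another 3 lowered reporters had few or no counts with GAL4-ACF1. The reporter at 12333115 went from 1050 and 860 cDNA counts in GAL4 to 0 and 27 with GAL4-ACF1, whereas ACF1 left 197 and 609 and GAL4-HP1 702 and 259. The reporter at 874665 went from 374 and 304 counts to 0 and 14 with GAL4-ACF1, whereas ACF1 left 32 and 18 and GAL4-HP1 94 and 144. At both sites every GAL4-ACF1 library was below every library of the other conditions. The edgeR adjusted p was 0.023 and 0.019 for these reporters, and 0.064 and 0.14 with cDNA libraries alone. The third, at 8214521, had 139 and 62 counts in GAL4 and 1 and 1 with GAL4-ACF1, at least 29.9-fold lower. Its edgeR adjusted p was 0.020, and 0.18 with cDNA libraries alone.

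The only X reporter that rose was the highest one, at 3325631. Its expression was 2532 and 2780 in GAL4, 7150 and 9516 in GAL4-ACF1, 6116 and 4690 in ACF1, and 4219 and 1572 in GAL4-HP1. The GAL4-ACF1 and ACF1 libraries were above GAL4, and the GAL4-HP1 libraries lay on either side. The edgeR log2 fold change was 1.79 ± 0.35 for GAL4-ACF1, with an adjusted p of 0.011. Its cDNA counts changed little, from 106978 and 108997 in GAL4 to 90862 and 102063 in GAL4-ACF1, whereas its gDNA counts went from 2910 and 1822 to 1301 and 574. With cDNA libraries alone the edgeR log2 fold change was 0.22 and the adjusted p 0.37.

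In the other comparisons no X reporter passed edgeR's test. For ACF1 against GAL4 this was 0 of 121, with 0.467% of all reporters called, 15 X reporters (64 of all) at an unadjusted p under 0.05, and 3 (17 of all) called by DESeq2. For GAL4-HP1 against GAL4 it was 0, with 0.312% of all called, 7 (61 of all) unadjusted and 2 (17 of all) by DESeq2. For GAL4-ACF1 against ACF1 it was 0, with 0.156% of all called, 18 (69 of all) unadjusted and 6 (25 of all) by DESeq2. That calls were made on X with GAL4-ACF1 and not with GAL4-HP1 does not show that the 2 differ at these reporters, and this was not tested. Of the 8 lowered reporters with GAL4-ACF1, 5 were among the 50 distal and 3 among the 71 proximal ones, against 6.39% of all reporters, and the one that rose was distal. These numbers are too small to compare the stretches.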

How the data were processed

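Barcodes were counted in 8 cDNA and 8 gDNA libraries, 2 replicates for each of 4 conditions. The authors deposited counts, which are whole barcode reads per reporter and library without normalization, and an expression ratio, which is the cDNA count over the gDNA count times 1 factor per library. This factor holds library size and the scaling to spike-in cells added at 2.5% by cell number. The scaling could not be recomputed, since the 232 barcodes of the spike-in pool were listed alone, without read numbers, and 0 of them are among the reporters. Integrations had been placed on build dm3 per the labels, and the aligner and counter are not given in the sources used here. A low gDNA count raises the ratio and its error.

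From these values the mean over replicates was taken per condition and the log2 ratio to GAL4 formed, over reporters with a mean above 0 in all 4 conditions. Medians were computed with Python 3.11.15 and pandas 2.3.3. Single reporters were tested with edgeR 4.0.16 (R 4.3.3) on the deposited counts of all 16 libraries, two-sided, with library sizes from column totals and Benjamini-Hochberg adjustment over 642 reporters at 0.05. The common dispersion was 0.358. The SE given with an edgeR change was derived as its absolute value divided by the square root of the F statistic. The code was tested on simulated data. Alternatives were other scalings, DESeq2 1.42.0, other filters, a pseudocount of 1 count, cDNA alone, a replicate block, and each replicate left out. The pseudocount was combined with scaling to library totals and no filter.

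Reporters named were those that passed the edgeR test, the 5 highest in GAL4, the 3 highest in GAL4 among those at 0 in both GAL4-ACF1 libraries, the 3 closest pairs, and the first and last on the arm. The members, lists and rules were chosen with earlier results of these data known. Replicates are called technical in the series text but biological in the study's methods, so p-values may measure technical spread only.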

Additional observations from a re-analysis of the deposited data

How the results depend on the processing

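The medians of the expression ratio over the X reporters stayed below 0 under the alternatives run on that ratio, for all 3 proteins, but their size moved. The median fitted change of GAL4-HP1 on X was above 0 with TMM (0.099) and with DESeq2's median-of-ratios (0.069). For GAL4-ACF1 these 2 scalings gave fitted medians of −0.65 and −0.41, against −1.60 in the full edgeR fit. For ACF1 they gave −0.22 and −0.17, against −0.81. In the expression ratio, the GAL4-ACF1 median (−1.77) was −1.58 with scaling to library totals. Over reporters above 0 in every cDNA library it was −1.35, and with a minimum of 10 counts per library −1.32. With a pseudocount and no filter it was −1.66, and with means of log2 values or the replicate block −1.43. Without gDNA it was −1.59, and with reporters at 0 ranked lowest −1.92. It ran from −1.49 to −1.40 when a replicate was left out. The pseudocount setting, here and below, was also scaled to library totals. For ACF1 (−0.57) the same settings gave −0.84 (totals), −0.33 for either stricter filter, −0.90 (pseudocount) and −0.29 (without gDNA), and −0.60 to −0.33 when a replicate was left out. For GAL4-HP1 (−1.47) they gave −0.63 (totals) and −0.63 (pseudocount), and −1.93 to −1.28 with a replicate left out.

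The X minus autosomal difference for GAL4-ACF1 (−0.46) was −0.46 (totals), −0.43 (whole autosomal arms), −0.30 and −0.28 (stricter filters) and −0.33 (pseudocount). It was −0.22 with means of log2 values or the replicate block, −0.29 without gDNA and −0.31 with zeros ranked lowest. With a replicate left out it was −0.34 to −0.051. For ACF1 (−0.19) it was −0.23 (totals), −0.093 and −0.13 (stricter filters), −0.047 (without gDNA) and −0.091 (zeros ranked lowest), and −0.12 to −0.082 with a replicate left out. For GAL4-HP1 (−0.03) its sign was not settled, with 0.011 (totals), −0.16 and −0.16 (stricter filters), 0.024 (pseudocount), −0.10 (log2 means or replicate block), 0.18 (without gDNA) and 0.0041 (zeros ranked lowest), and −0.14 to −0.12 with a replicate left out. The difference in control level (−0.33) was −0.20 and −0.16 with the stricter filters and ranged from −0.64 to −0.24 with a replicate left out.

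The distal minus proximal difference was added after its values had been seen. For GAL4-ACF1 it was −1.47 to −0.75 with a replicate left out. For ACF1 (−0.83) it was −0.59 and −0.68 with the stricter filters, −0.51 with log2 means or the replicate block and −0.33 without gDNA, and −0.86 to −0.70 with a replicate left out. For GAL4-HP1 (−0.11) it was −0.57 to −0.10 with a replicate left out, 0.0011 without gDNA and 0.0025 with zeros ranked lowest. It was below 0 in 8 of 10 alternatives, so its sign was not settled.

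Calls on X with GAL4-ACF1 (9) were 2 with TMM (25 of all 642), 27 with DESeq2 (112 of all), 20 without a filter (93 of 749) and 14 among reporters above 0 in every cDNA library (54 of 497). With 1 library left out they ran from 0 to 22. They were 0 without GAL4 replicate 1 or GAL4 replicate 2, 14 without GAL4-ACF1 replicate 1 and 22 without its replicate 2. The calls over all 642 reporters moved in the same direction each time. These fits leave 1 library in a group, so their counts are not set against the 9. The median fitted change on X was −1.54 and −1.43 without GAL4-ACF1 replicate 1 and 2, against −1.60 in the full fit. The replicate block gave 12 (47 of all 642), which included all 9. For ACF1 DESeq2 called 3, all lower (17 of all 642), and its median-of-ratios 1, which was higher (13 of all). The replicate block called 1 (4 of all). For GAL4-HP1 DESeq2 called 2 lower with library totals (17 of all) and 2 higher with median-of-ratios (13 of all), so the direction was not settled. With median-of-ratios 79 of the 121 X reporters had no adjusted p. With cDNA alone 1 was called (5 of all). For GAL4-ACF1 against ACF1, 1 was called with the authors' scaling (4 of all 642) and 1 without a filter (5 of 749). The 2 DESeq2 settings called 6 and 4 (25 and 15 of all). With a library left out the median fitted change on X ran from −0.84 to −0.55, against −0.64 in the full fit. Across reporters, deviations of same-numbered libraries correlated by −0.06 to 0.21 in cDNA and −0.03 to 0.06 in gDNA. These values cannot show a shift shared by whole libraries, so whether replicate numbers pair the samples was not settled. None of the 9 called reporters changed sign in any alternative. Depth limits the 14 X reporters at no more than 3 counts in both GAL4-ACF1 libraries to lower bounds.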

Other observations

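Runs of 6 or more G in the barcode were found in 4 X reporters, with a median expression of 617 in GAL4 and a range from 10.1 to 2656, against 24.9 for the other X reporters. On the autosomal arms 5 reporters had such a run, with a median of 4.00 and a range from 2.60 to 125. The feature was noticed after the values had been seen, and its part in the levels was not tested.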
